A study of Mus musculus with 6 samples.

Results

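Skeletal muscle genes were followed in the RNA of cultured osteoblasts, the cells that lay down bone matrix. The 10 genes were Myod1, Myog, Myf5, Actc1, Acta1, Myh3, Tnnt3, Chrna1, Ckm and Mylpf. They were picked by name, through the Ensembl IDs that the GENCODE M21 annotation gives them, out of 51912 rows of the count table. All 10 had a row, and 7 of them were among the 19017 rows that passed a filter on low counts and were tested. Myod1, Myf5 and Ckm did not pass it. The 10 had been chosen with their difference between the groups already known, so their levels and fold changes are given as a description and carry no test.

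The cultures came from the calvaria, the skull cap, of C57BL/6J pups aged 1 d in which both Mark3 alleles were flanked by loxP sites (Mark3 flox/flox), and they were kept in aMEM with 10% FBS. For 24 h they were exposed to an adenovirus carrying GFP (WT, 3 libraries) or one carrying CRE, the recombinase that deletes the flanked part of Mark3 (Mark3-KO, 3 libraries). Mark3 encodes a kinase that phosphorylates microtubule-associated proteins, and the deletion and the virus changed together, so their effects cannot be told apart. Neither the promoter driving Cre, nor the number of pups behind a library, nor whether a group's libraries are separate cultures is given in the sources used here. A p-value therefore reflects the spread between these libraries alone.

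Skeletal muscle forms when mononucleated myoblasts leave the cell cycle and fuse into fibres. Myf5 and Myod1 encode basic helix-loop-helix factors that commit cells to the muscle lineage, and Myog encodes a related factor that drives terminal differentiation. These factors bind E-boxes in the promoters of genes for the contractile apparatus, such as actins, myosins and troponins. Osteoblasts arise along another mesenchymal lineage, under Runx2 and Sp7.

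Across these libraries transcripts of the contractile genes were present at low levels, and those of the determination factors were nearly or wholly absent. Acta1, Myh3, Mylpf and Actc1 were lower in every Mark3-KO library than in any WT library, with Acta1 at 5.02 ± 2.16 CPM in WT against 0.924 ± 0.419 CPM in Mark3-KO (SD, n = 3; CPM are depth-scaled counts on library sizes adjusted with TMM). Myog, Tnnt3, Chrna1, Myod1 and Ckm overlapped between the groups. Of all tested genes, 27.5% were likewise lower in every Mark3-KO library. The libraries also differed by transcript GC content along the groups, as given below.

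Library totals ran from 56925883 to 71445243 counts. Mark3 measured 112.8, 117.6 and 117.6 CPM in WT 1 to 3 and 47.6, 52.4 and 44.1 CPM in Mark3-KO 1 to 3. Its log2 fold change of Mark3-KO over WT was -1.27 (SE 0.10, adjusted p 0.0153, edgeR quasi-likelihood test with Benjamini-Hochberg adjustment). It passed an adjusted p of 0.05 with all 6 libraries, and the adjusted p was 0.128 without WT 2, 0.0798 without Mark3-KO 2 and 0.0681 without Mark3-KO 3. All 13 osteoblast markers were tested, among them Runx2 (71.2 ± 9.86 CPM in WT, SD, n = 3) and Col1a1 (13907 ± 7188 CPM). Others of the 13 were scarce, with Bglap2, Phex, Bglap and Dmp1 at means of 1.30, 1.16, 0.703 and 0.344 CPM in WT. Transcript GC content set the libraries apart from each other. In the tenth of genes richest in GC, the median log2 ratio of a library to the mean of all 6 was 1.15, 0.72 and 0.11 in WT 1 to 3 and -0.21, -0.71 and -1.0 in Mark3-KO 1 to 3. The share of mitochondrial counts followed the same order, from 1.05% in WT 1 to 3.22% in Mark3-KO 3.

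Promoters are shown for 5 of the 10 genes, since the factors above act there. Acta1, Actc1, Myh3 and Mylpf are the members whose groups did not overlap, and Chrna1 is one whose groups did. Each run is the RefSeq promoter in GRCm38.p6 on the gene's strand, 5′ to 3′, from 250 bases before the annotated start to 50 bases after it. Capitals mark matches to an E-box (CANNTG), a TATA box (TATAAA), an MCAT element (CATTCC) or a CArG box, the element bound by serum response factor.
Acta1, chr8:123894726-123895025, minus strand: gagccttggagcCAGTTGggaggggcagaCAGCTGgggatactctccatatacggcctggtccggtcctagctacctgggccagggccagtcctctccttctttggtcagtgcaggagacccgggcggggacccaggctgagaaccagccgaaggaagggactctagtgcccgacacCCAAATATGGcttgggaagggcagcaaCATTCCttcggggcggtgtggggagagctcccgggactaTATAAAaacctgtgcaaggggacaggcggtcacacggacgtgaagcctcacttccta
Actc1, chr2:114052826-114053125, minus strand: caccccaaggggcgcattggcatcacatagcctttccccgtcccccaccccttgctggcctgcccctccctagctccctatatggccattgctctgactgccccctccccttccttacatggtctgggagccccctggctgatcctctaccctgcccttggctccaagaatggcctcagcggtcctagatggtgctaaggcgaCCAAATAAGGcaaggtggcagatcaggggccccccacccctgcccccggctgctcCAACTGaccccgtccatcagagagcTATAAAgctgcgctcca
Myh3, chr11:67078050-67078349, plus strand: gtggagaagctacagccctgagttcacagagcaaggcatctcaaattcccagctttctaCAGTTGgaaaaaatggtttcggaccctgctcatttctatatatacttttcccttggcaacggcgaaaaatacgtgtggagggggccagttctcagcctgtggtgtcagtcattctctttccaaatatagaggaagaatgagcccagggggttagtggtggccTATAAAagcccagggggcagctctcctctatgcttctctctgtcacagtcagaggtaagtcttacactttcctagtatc
Mylpf, chr7:127211358-127211657, plus strand: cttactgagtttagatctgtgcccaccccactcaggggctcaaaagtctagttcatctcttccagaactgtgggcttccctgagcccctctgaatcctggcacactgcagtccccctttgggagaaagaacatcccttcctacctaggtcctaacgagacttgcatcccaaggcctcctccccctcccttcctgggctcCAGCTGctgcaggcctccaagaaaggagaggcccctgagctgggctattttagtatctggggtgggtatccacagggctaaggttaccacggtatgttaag
Chrna1, chr2:73580289-73580588, minus strand: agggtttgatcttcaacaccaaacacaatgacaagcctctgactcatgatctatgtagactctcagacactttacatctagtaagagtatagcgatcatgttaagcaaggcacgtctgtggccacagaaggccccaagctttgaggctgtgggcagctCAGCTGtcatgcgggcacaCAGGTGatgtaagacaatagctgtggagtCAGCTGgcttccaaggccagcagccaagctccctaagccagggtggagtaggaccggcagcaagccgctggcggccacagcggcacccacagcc

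Of the 10 genes, 8 had a promoter in the RefSeq table, and Myod1 and Tnnt3 had none. For Actc1, Ckm and Mylpf the window lay wholly within the gene coordinates given below. Both strands were searched. An E-box was found in 7 of the 8, against 72.3% of all 32851 promoters of the table. Its CAGCTG form, which is counted among the E-boxes too, was found in 4 of the 8 (Acta1, Chrna1, Ckm and Mylpf) and in 16.3% of all promoters. A TATAAA was found in 4 of the 8 (Myf5, Actc1, Acta1 and Myh3) and in 13.6% of all. In Myf5 and Actc1 the TATAAA lay after the annotated start, at 21 to 26 and at 34 to 39. In Acta1 and Myh3 it lay before the start, at -7 to -2 and at -29 to -24. The CArG box was found in the 2 actin promoters, at -73 to -64 in Acta1 and at -47 to -38 in Actc1, and in 1.63% of all. CATTCC was found in Acta1 alone of the 8, at -46 to -41, and in 14.7% of all. The MEF2 box, searched as YTAWWWWTAR (Y is C or T, W is A or T, R is A or G), was found in 0 of the 8 and in 3.19% of all. Near matches were not counted, such as ctatatttat in Myog, which departs from it at the last base. Chrna1 held the most E-boxes of the 8, namely CAGCTG at -92 to -87 and at -44 to -39 and CAGGTG between them. These matches are descriptions of the letters in the window, not measured binding.

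**Figure D1:**
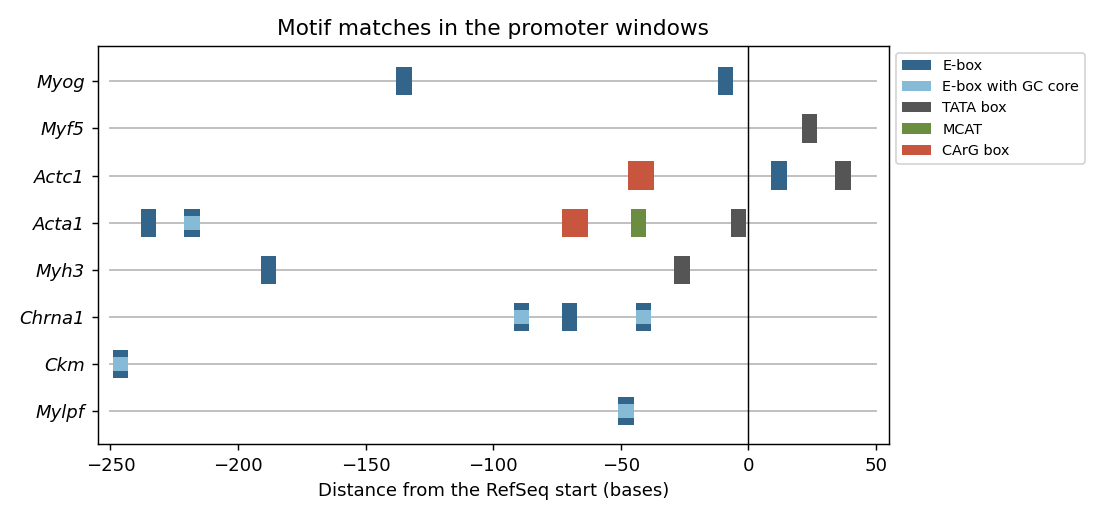
Motif matches in the 8 member promoters of the RefSeq table, by distance in bases from the annotated start (x axis; vertical line, start). Each coloured box is 1 match on either strand; only Acta1 and Actc1 hold a CArG box, and Chrna1 holds 3 E-boxes.

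The determination factors were near the lower limit of detection. Myf5 (chr10:107482908-107486134) had 0 counts in all 6 libraries, which allows a level of up to 0.00799 CPM over the 6 (3 counts). Myod1 (chr7:46376474-46379099) had 10, 7 and 3 counts in WT 1 to 3 against 0, 0 and 5 counts in Mark3-KO 1 to 3. The groups overlapped, since Mark3-KO 3 lay above WT 3. Summed over libraries, Myod1 had 20 counts in WT against 5 in Mark3-KO, for a ratio of CPM of 0.232 (95% exact interval 0.0679 to 0.636, for counting error only).

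Myog, the factor of terminal differentiation (chr1:134289989-134292548), had 11, 30 and 15 counts in WT against 21, 10 and 2 in Mark3-KO. On the CPM scale these were 0.189, 0.545 and 0.224 against 0.285, 0.168 and 0.0325, so that Mark3-KO 1 lay above 2 of the WT libraries. Its log2 fold change was -0.93 with an SE of 0.71, the widest among the 7 tested members. The means were 0.319 ± 0.196 CPM in WT against 0.162 ± 0.126 CPM in Mark3-KO (SD, n = 3).

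The actin genes of striated muscle were both lower in every Mark3-KO library than in any WT library. Acta1, which encodes skeletal alpha-actin, the thin filament protein of adult muscle (chr8:123891769-123894751), had 416, 282 and 189 counts in WT against 103, 46 and 37 counts in Mark3-KO. That gave 7.13, 5.12 and 2.82 CPM against 1.40, 0.772 and 0.602 CPM, and the libraries ranked in the order of their GC ratios above. The level left in Mark3-KO was 18.4% of that in WT, with a log2 fold change of -2.43 (SE 0.45). Actc1, which encodes the alpha-actin of heart and of developing skeletal muscle (chr2:114047282-114053548), had 72, 122 and 100 counts in WT against 77, 40 and 33 in Mark3-KO. Its levels were 1.23, 2.22 and 1.49 CPM in WT against 1.04, 0.671 and 0.537 CPM in Mark3-KO. The gap between the lowest WT library and the highest Mark3-KO library was small here, and WT 2 rather than WT 1 was the highest. The log2 fold change of Actc1 was -1.12 (SE 0.34).

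Among the members, the genes of the thick filament, Myh3 and Mylpf, showed the same arrangement of groups. Myh3 encodes embryonic myosin heavy chain, a motor protein made in developing and regenerating fibres (chr11:67078300-67102291), and had 264, 320 and 231 counts in WT against 184, 91 and 69 in Mark3-KO. Its levels were 4.53, 5.81 and 3.44 CPM in WT against 2.50, 1.53 and 1.12 CPM in Mark3-KO, with no overlap and a log2 fold change of -1.42 (SE 0.35). Mylpf encodes the regulatory light chain of fast fibres (chr7:127208890-127214298), and had 124, 178 and 125 counts in WT against 108, 43 and 43 in Mark3-KO. At 2.13, 3.23 and 1.86 CPM in WT against 1.47, 0.722 and 0.700 CPM in Mark3-KO, it too did not overlap. The level left in Mark3-KO was 37.3% for Myh3 and 40.0% for Mylpf.

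Tnnt3 and Chrna1 overlapped between the groups, in both cases through Mark3-KO 1. Tnnt3 encodes fast troponin T, which ties the calcium switch of the sarcomere to tropomyosin (chr7:142498836-142516009). It measured 1.58, 1.89 and 1.27 CPM in WT against 1.51, 0.705 and 0.911 CPM in Mark3-KO (92, 104 and 85 counts against 111, 42 and 56). Chrna1 encodes the alpha subunit of the muscle acetylcholine receptor, which binds the transmitter at the neuromuscular junction (chr2:73563215-73580338). It measured 1.68, 2.23 and 1.80 CPM in WT against 2.10, 1.23 and 1.01 CPM in Mark3-KO (98, 123 and 121 counts against 155, 73 and 62). In Mark3-KO 1 its level was above that of WT 1 and WT 3, while the other Mark3-KO libraries were below every WT library. The log2 fold changes were -0.59 (SE 0.33) for Tnnt3 and -0.39 (SE 0.31) for Chrna1.

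Ckm, the muscle creatine kinase that buffers ATP in mature fibres (chr7:19404776-19422841), had 2, 9 and 0 counts in WT against 3, 1 and 1 in Mark3-KO. Its total of 11 counts in WT against 5 in Mark3-KO gave a ratio of CPM of 0.421 (exact 95% interval 0.115 to 1.31, for counting error only), and the groups overlapped. Of its exon bases, 15.5% are shared with the antisense gene A930016O22Rik, which had 1, 0 and 3 counts in WT against 0 in each Mark3-KO library. The kit did not mark strand, so reads of the pair cannot be told apart. The exons of the other 9 members overlap those of no other annotated gene. Some of the distinct 50-base stretches in the members' transcripts also occurred in transcripts of other genes. Their share was 10.8% for Ckm, all found in A930016O22Rik, 4.76% for Myh3, 3.02% for Chrna1 and 2.02% for Acta1. How reads from such stretches were counted is not given in the sources used here.

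**Figure D2:**
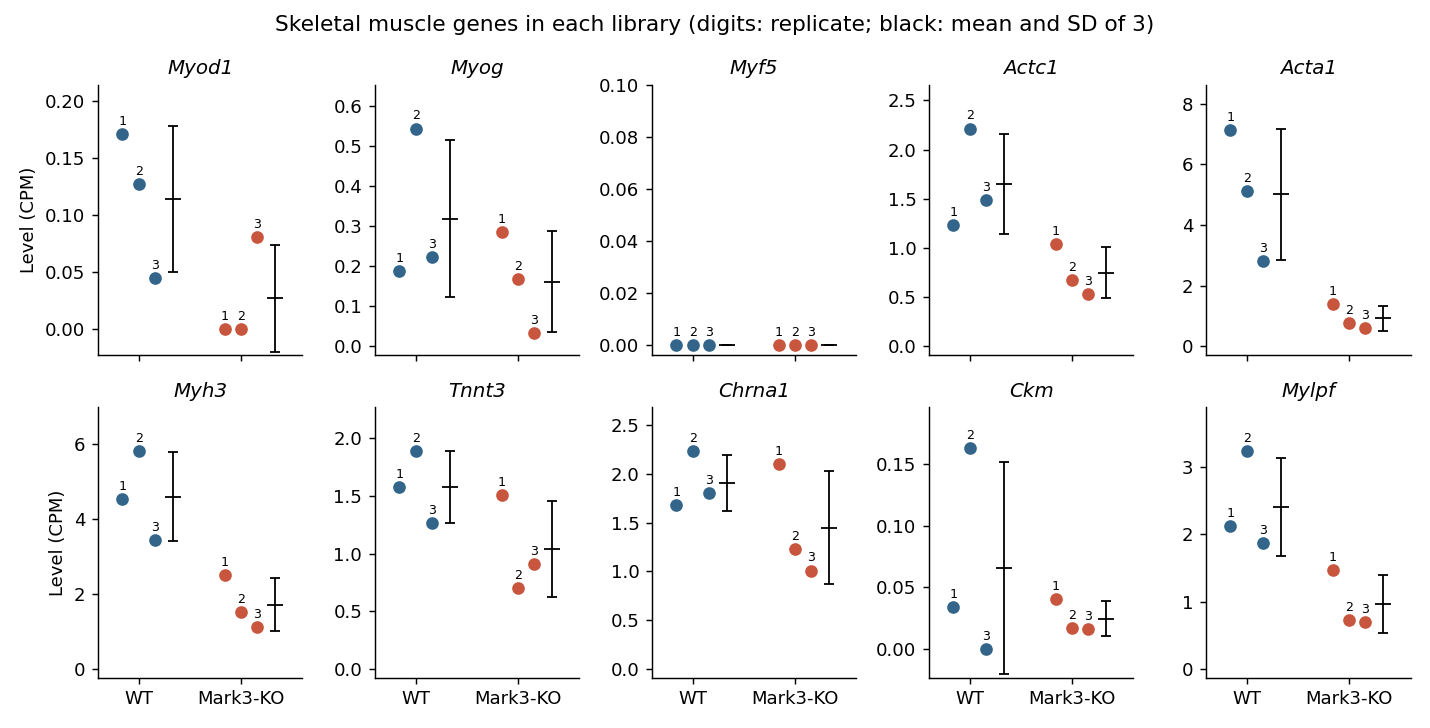
Level of each of the 10 genes in CPM on TMM-scaled library sizes (y axis, 1 scale per gene) in WT (blue) and Mark3-KO (red) libraries, with the replicate number above each point and the mean and SD of 3 in black. The groups are apart for Actc1, Acta1, Myh3 and Mylpf, and Myf5 is at 0 in all 6.

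Compared per exon length, all 10 were scarce. In WT the order by RPKM (CPM per kilobase of exon) was Acta1 (3.27 ± 1.41), Mylpf (2.27 ± 0.684), Actc1 (1.02 ± 0.314), Tnnt3 (0.997 ± 0.196), Myh3 (0.758 ± 0.196), Chrna1 (0.435 ± 0.0662), Myog (0.213 ± 0.131), Myod1 (0.0615 ± 0.0346) and Ckm (0.0226 ± 0.0296), with Myf5 at 0. Acta1 and Mylpf, and likewise Actc1 and Tnnt3, differed by less than the larger SD of the pair. In Mark3-KO Mylpf came first (0.906 ± 0.410), followed by Tnnt3 (0.657 ± 0.263), Acta1 (0.601 ± 0.273), Actc1 (0.464 ± 0.163), Chrna1 (0.330 ± 0.132) and Myh3 (0.283 ± 0.117), and each of these neighbours differed by less than the larger SD of the pair. Acta2, the smooth muscle actin that cultured mesenchymal cells also make, stood at 1422 ± 150 RPKM in WT against 914 ± 232 RPKM in Mark3-KO.

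Summed over the 10 genes, the level was 18.7, 21.3 and 13.0 CPM in WT 1 to 3 against 10.3, 5.81 and 5.01 CPM in Mark3-KO 1 to 3. Every WT library lay above every Mark3-KO library, and WT 3 and Mark3-KO 1 were next to each other. The means were 17.7 ± 4.28 and 7.05 ± 2.87 CPM, which left 39.9% in Mark3-KO. In bulk RNA, fewer cells of a type and less RNA per cell cannot be told apart. Without Acta1, the sums were 11.5, 16.2 and 10.1 CPM in WT against 8.94, 5.03 and 4.41 CPM in Mark3-KO.

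Of the 7 tested members, 4 had groups that did not overlap, all with Mark3-KO lower, where 27.5% of all tested genes did so. A log2 fold change of -1 or below was found in 4 of the 7 and in 13.3% of all tested genes, and one below 0 in 7 of the 7 and in 48.9%. Their median was -1.12, beside 0.02 over all tested genes. Since the members were picked on this contrast, nothing is read from these shares. At an adjusted p below 0.05 in edgeR's quasi-likelihood test, 0 of the 7 passed, where 0.216% of all tested genes passed (0.168% with Mark3-KO lower, 0.0473% higher). At an unadjusted p below 0.05 there were 4, all lower, beside 24.8% of all tested genes that were lower. The DESeq2 Wald test passed 4, all lower, where it passed 21.8% of all tested genes as lower and 14.5% as higher, and limma-voom passed 0, where it passed 0.142% in all. Nothing is read from these counts either.

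Most members are rich in GC, and the GC values of the libraries moved with the groups. Transcript GC content was 57.4% for Acta1, 53.8% for Myh3, 53.2% for Actc1, 52.3% for Mylpf and Tnnt3, 54.8% for Myog and 46.3% for Chrna1, against a median of 49.25% over tested genes. Chrna1 alone among the 7 lay below that median. In the tenth of genes that holds Acta1, the richest in GC, the median log2 fold change was -1.33. It was -0.52 in the tenth with Actc1, Myh3 and Myog, -0.28 in that with Mylpf and Tnnt3 and 0.24 in that with Chrna1. All 7 tested members lay below the median of the tenth they belong to.

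With a correction for GC content in each library, the log2 fold change was -1.35 (SE 0.21) for Acta1, -1.03 (SE 0.32) for Mylpf, -0.92 (SE 0.25) for Myh3 and -0.73 (SE 0.30) for Actc1. Acta1 moved the most of the 7 and kept the lowest value. It was -0.63 (SE 0.32) for Chrna1, which moved further from 0, -0.32 (SE 0.66) for Myog and -0.30 (SE 0.27) for Tnnt3. The median of the 7 was then -0.73, beside 0.01 over all tested genes, with 7 of the 7 below 0 (48.4% of all tested genes) and 2 of the 7 at -1 or below (2.7% of all). None of the 7 passed an adjusted p of 0.05 in this fit (edgeR), where 0.3% of all tested genes passed lower and 0.105% higher. At an unadjusted p below 0.05 there were 4, all lower, beside 13.6% of all tested genes that were lower. Corrected levels of Acta1, Myh3 and Mylpf did not overlap between the groups. Those of Actc1 did, with WT 1 at 0.968 CPM below Mark3-KO 1 at 1.06 CPM. The corrected sum of the members was 13.5, 17.8 and 12.5 CPM in WT against 10.5, 6.82 and 6.28 CPM in Mark3-KO, still without overlap. In this sum Myod1, Myf5 and Ckm enter uncorrected, since the correction was fitted to tested genes. WT 2 was the highest library with and without the correction, and Mark3-KO 3 the lowest.

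**Figure D3:**
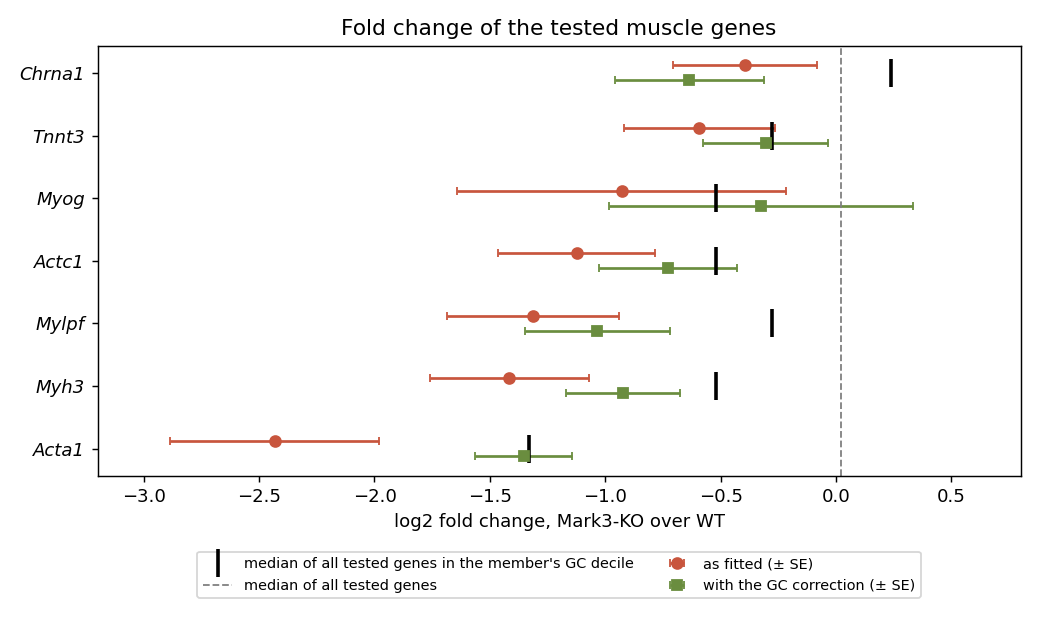
Log2 fold change of Mark3-KO over WT (x axis) for the 7 tested members, as fitted (red circles) and with the GC correction (green squares), each with its SE. Black bars mark the median of all tested genes in the same GC decile and the dashed line that of all tested genes (0.02); Acta1 goes from -2.43 to -1.35 and Chrna1 from -0.39 to -0.63.

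Within its family, each member could be placed by level per length. Shares so taken depend on the merged exon length used, which was 11772 bases for Myh8 against 6057 for Myh3. In CPM, Myh8 was at 2.15 ± 0.835 in WT against 4.59 ± 1.18 for Myh3. Among the myosin heavy chains of skeletal muscle, Myh3 took 66.9 ± 1.92% of the summed RPKM in WT against 62.3 ± 2.58% in Mark3-KO (SD, n = 3). Myh8, the neonatal form, took 15.7 ± 1.95% and 18.5 ± 1.71%, and Myh1, the fast IIx form, 12.3 ± 1.45% and 15.4 ± 1.64%. The embryonic form therefore led in all 6 libraries, with a range of 65.4 to 69.0% in WT and 60.2 to 65.2% in Mark3-KO. Myh7, the slow form, had 21, 24 and 28 counts in WT against 4, 11 and 5 in Mark3-KO. Of the adult fast forms, Myh2 and Myh4 were close to nothing and Myh1 was not. In WT 1 to 3 and Mark3-KO 1 to 3, Myh2 had 6, 6, 0, 6, 0 and 0 counts. Myh4 had 0, 1, 0, 1, 0 and 0 in the same order. Myh1 had 59, 58 and 40 counts in WT against 53, 25 and 15 in Mark3-KO.

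**Figure D4:**
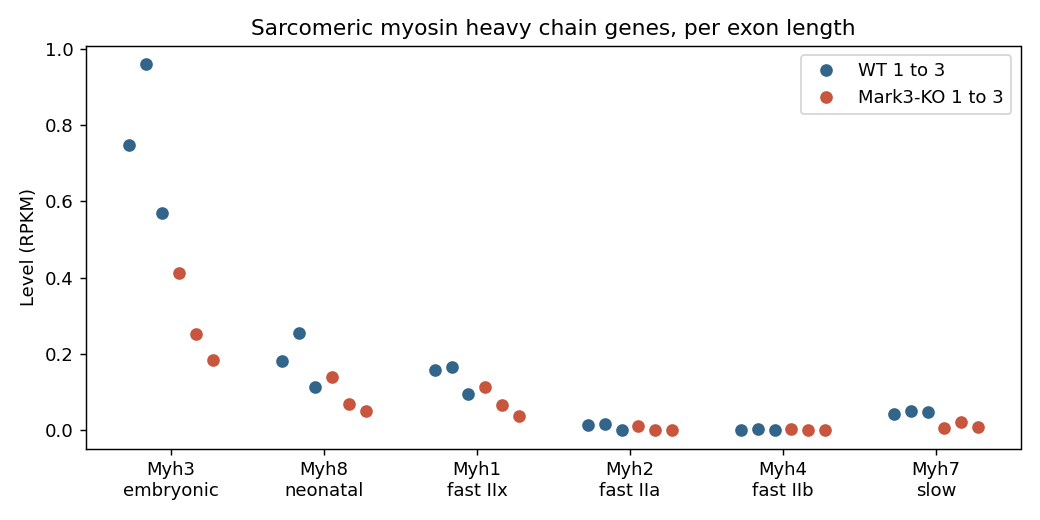
Level of 6 sarcomeric myosin heavy chain genes in RPKM (y axis) in WT 1 to 3 (blue, left to right) and Mark3-KO 1 to 3 (red, left to right). Myh3 leads in every library, from 0.185 to 0.959 RPKM, and Myh2 and Myh4 lie at or near 0.

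Tnnt3 took 74.8 ± 5.01% of troponin T in WT and 75.3 ± 3.90% in Mark3-KO, ahead of the slow form Tnnt1 (18.5 ± 6.16% and 19.0 ± 3.18%) and the cardiac form Tnnt2 (6.70 ± 1.25% and 5.78 ± 1.36%). These shares differed between the groups by less than their SDs. They depend on the merged exon length used, which was 7752 bases for Tnnt2 against 2204 for Tnnt1 and 1583 for Tnnt3. In CPM, Tnnt2 was not below Tnnt1 in WT (0.691 ± 0.188 against 0.563 ± 0.257). Among receptor subunits, Chrng, whose gamma subunit marks the fetal receptor, had 22, 15 and 15 counts in WT against 5, 8 and 5 in Mark3-KO. Chrne, of the adult receptor, had 4, 4 and 7 counts against 8, 2 and 6, and Chrnd, of both forms, 4, 11 and 2 against 11, 3 and 3. Chrng was thus lower in every Mark3-KO library than in any WT library, and Chrne and Chrnd overlapped. Chrnb1, the beta subunit gene, measured 5.25, 5.30 and 5.23 CPM in WT against 5.14, 4.21 and 4.60 CPM in Mark3-KO, with no overlap but a narrow gap. Ckb, the brain-type creatine kinase, made up 98.4 ± 0.872% of the creatine kinases in WT and 95.6 ± 0.487% in Mark3-KO, where Ckm held 0.219% and 0.309%.

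Other genes of the muscle programme were taken from lists of 136 genes, drawn up with earlier results of these data known, of which 101 were tested. In edgeR's quasi-likelihood test 0 were higher and 0 lower at an adjusted p below 0.05. At an unadjusted p below 0.05, 8 were higher and 38 lower, where 20.8% of all tested genes were higher and 24.8% lower. The DESeq2 Wald test passed 5 higher and 31 lower, where it passed 14.5% and 21.8% of all tested genes, and limma-voom passed 0. Of the 101, 72 had a log2 fold change below 0, with a median of -0.54, beside 48.9% and 0.02 over all tested genes. With the GC correction 67 were below 0 and the median was -0.09.

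The lists closest to the contractile members had medians below 0. In each list the genes named first are those with the highest mean CPM. Of 29 tested sarcomere genes, 26 were below 0, with a median of -0.62. With the GC correction it was 21 of 29, with a median of -0.24. Its most abundant genes, the tropomyosins Tpm1, Tpm3 and Tpm2, which non-muscle cells also make, had log2 fold changes of -0.01, -0.28 and -0.95. With the GC correction these were 0.11, -0.24 and -0.03. All 6 tested genes of the neuromuscular junction were below 0 (median -0.69), led in abundance by Agrn (-0.85), Lrp4 (-0.54) and Chrnb1 (-0.18), the nerve-derived organiser of the junction, its receptor and the beta receptor subunit. For excitation-contraction coupling it was 9 of 10 (median -0.65), where Jph2, which holds the sarcoplasmic reticulum to the membrane, was at -1.26 and Srl and Jph1 at 0.15 and -0.04. For energy metabolism it was 9 of 10 (median -0.82), with Pfkm, Ckb and Eno3 at -0.79, -2.02 and -0.86. After the GC correction these 3 medians were -0.05, -0.11 and -0.21, with 4 of 6, 6 of 10 and 7 of 10 below 0. Corrected, Agrn, Lrp4 and Chrnb1 were at 0.26, -0.01 and 0.07, and Jph2, Srl and Jph1 at 0.09, 0.29 and -0.27. Pfkm, Ckb and Eno3 were then at -0.19, -0.41 and -0.23. Of the dystrophin complex, which links the fibre to its matrix, 4 of 11 were below 0 (median 0.15). With the GC correction it was 8 of 11 (median -0.02). Utrn, Dag1 and Sntb2 were at 0.08, -1.55 and 0.27, and at 0.02, -1.03 and 0.16 corrected.

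Upstream of the contractile genes the lists were mixed. Of 9 tested progenitor and determination genes 4 were below 0 (median 0.03, and -0.02 with the GC correction). Eya2 and Six4, both among the more abundant, were at -1.20 and 0.43, and at -0.31 and 0.10 corrected. Pax7, the marker of muscle stem cells, had 5, 0 and 3 counts in WT against 7, 0 and 0 in Mark3-KO. Myf6, another determination factor, and Lbx1, which marks migrating limb precursors, were at 0 in all 6 libraries. The fusion genes had a median of -0.05 (-0.02 corrected), with Dock1, Dock5 and Cdh2 at 0.07, 0.13 and -0.13. Corrected, Dock1, Dock5 and Cdh2 were at -0.02, 0.15 and -0.47. Mymk, which encodes the membrane protein needed for myoblasts to fuse, had 35, 37 and 13 counts in WT against 9, 0 and 13 in Mark3-KO, while its partner Mymx had 2, 2 and 0 against 0, 3 and 3. Mymk in WT 3 was level with Mark3-KO 3 in counts, and Mymx was at the limit of detection throughout.

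Partners and inhibitors of the myogenic factors included members with no overlap between the groups. Tcf3, which encodes the E proteins that pair with Myod1, measured 97.6, 64.9 and 27.2 CPM in WT against 17.6, 3.69 and 3.06 CPM in Mark3-KO, without overlap. Its log2 fold change was -2.96 (SE 0.81), and -1.54 with the GC correction, and it did not pass in either fit. Tcf12 and Tcf4, which encode other E proteins, were at -0.16 and 0.00, and Mef2a, of a family that acts with the myogenic factors, at 0.36. Corrected, Tcf12, Tcf4 and Mef2a were at -0.53, -0.09 and -0.13. Id3, whose protein holds E proteins away from DNA, measured 92.3, 60.7 and 21.7 CPM in WT against 16.9, 8.59 and 6.30 CPM in Mark3-KO, with a log2 fold change of -2.46 (-1.52 corrected). Id1 and Id2, of the same family, were at -0.64 and 0.10, and at 0.11 and -0.19 corrected. Among the other inhibitors, Zeb1, Snai2 and Twist1 were at 0.19, 0.39 and 0.19, and at -0.08, -0.08 and 1.49 corrected. The medians were -0.41 for the 8 partners tested and 0.10 for the 11 inhibitors, and -0.07 and -0.08 with the GC correction. In both Tcf3 and Id3 the libraries ranked as in Acta1.

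**Figure D5:**
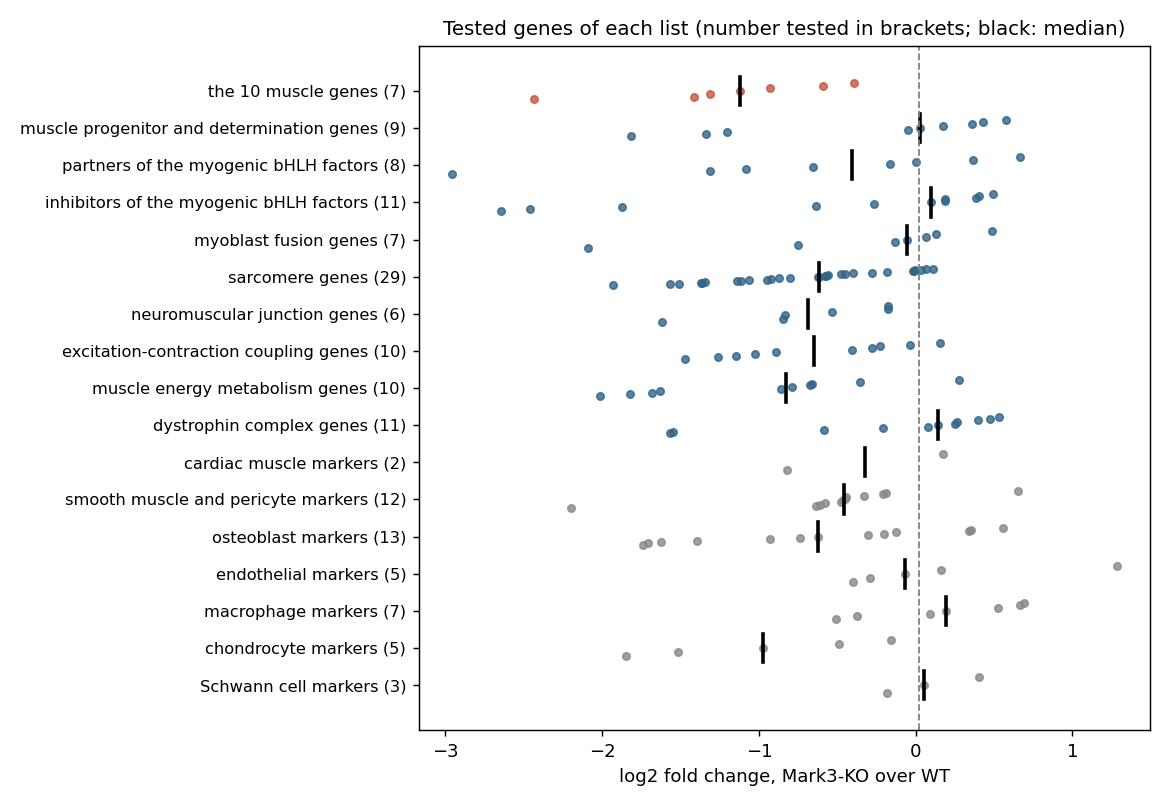
Log2 fold change of Mark3-KO over WT (x axis) of each tested gene, by list (number tested in brackets), for the members (red), other muscle lists (blue) and markers of other cells (grey). Black bars are list medians and the dashed line is the median of all tested genes (0.02); the members' median is -1.12 and that of the sarcomere genes -0.62.

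Markers of other cells were read beside the members. Cardiac muscle shares Actc1, and a cardiac source of Actc1 was not tested. Nkx2-5 and Myl7 were at 0 in all 6 libraries. The 9 cardiac markers summed to 0.909 to 1.20 CPM in WT against 0.655 to 0.814 CPM in Mark3-KO. The most abundant cardiac markers, Tnni3, Ryr2 and Mybpc3, had means of 0.528, 0.238 and 0.130 CPM in WT. Smooth muscle and pericyte markers summed to 4071 to 5150 CPM in WT against 2427 to 3809 CPM in Mark3-KO, and 11 of 12 were below 0 (median -0.45), with Acta2, Tagln and Actg2 at -0.64, -0.44 and -0.45. Osteoblast markers were below 0 in 10 of 13 (median -0.62), with Col1a1, Col1a2 and Sparc at -1.74, -0.74 and 0.35, and summed to 21653 to 43225 CPM in WT against 14609 to 21530 CPM in Mark3-KO. Chondrocyte markers were below 0 in 5 of 5 (median -0.98), with Col2a1, Acan and Sox9 at -1.52, -0.15 and -0.49, and summed to 674 to 1744 CPM in WT against 352 to 586 CPM in Mark3-KO. Osteoblast, smooth muscle and chondrocyte markers therefore had medians on the side of the members, and with the GC correction these were -0.36, -0.14 and -0.49. Their part in the result was not tested. Sums of the other marker lists differed less: 4.48 to 4.58 against 4.47 to 4.71 CPM for endothelial markers, 214 to 241 against 245 to 284 CPM for macrophage markers and 8.03 to 8.68 against 8.23 to 9.54 CPM for Schwann cell markers. The most abundant endothelial markers, Tek, Kdr and Cdh5, were at -0.07, 0.16 and -0.29, and the macrophage markers Lyz2, Mrc1 and Adgre1 at 0.19, 0.69 and 0.53. Of the scarcer endothelial markers tested, Pecam1 was at 1.29 and Vwf at -0.40, and at 1.33 and 0.25 with the GC correction. Pecam1 had 12, 11 and 11 counts in WT against 39, 29 and 23 in Mark3-KO. Macrophage markers were above 0 in 5 of 7 (median 0.19), and in 7 of 7 with the GC correction (median 0.11). No marker of these 7 lists passed an adjusted p of 0.05 (edgeR). At an unadjusted p below 0.05, 1 smooth muscle and pericyte marker was higher and 9 lower, 1 osteoblast marker higher and 6 lower, 3 chondrocyte markers lower, 3 macrophage markers higher and 1 lower, and 1 endothelial marker higher, with the shares of all tested genes as given above.

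Across the 6 libraries the members differed in how alike their levels were. As a description over these 6 libraries, which share their depth and GC order, Pearson's r of a member's log2 CPM with the log2 sum of the other members was 0.99 for Myh3, 0.98 for Mylpf, 0.93 for Actc1, 0.92 for Acta1, 0.89 for Tnnt3, 0.82 for Chrna1 and 0.77 for Myog. For Ckm and Myod1, with few counts, it was 0.56 and 0.55. The genes outside the 10 whose log2 CPM was most like the log2 sum of the members were Il11ra2, Kdm8, Cntnap1, Pdk2 and Abhd4, with r from 0.996 to 0.999. Such likeness was common, since 26.9% of 14184 tested protein-coding genes had an r above 0.9. Il11ra2 measured 1.20, 1.51 and 0.835 CPM in WT against 0.678, 0.319 and 0.277 CPM in Mark3-KO, with a log2 fold change of -1.45. It has no GC value here and so was not corrected, and it is a near copy of Il11ra1, with which reads could be shared. For Kdm8, Cntnap1, Pdk2 and Abhd4 the correction took the log2 fold change from -0.51, -0.95, -0.75 and -0.39 to 0.13, -0.03, 0.23 and 0.04.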

How the data were processed

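The authors deposited whole-number counts of 6 libraries (3 WT, 3 Mark3-KO) for 51912 Ensembl IDs. The submitters' processing notes name GRCm38 and, in no order, DESeq2, StringTie, HISAT2 2.0.5 and FastQC. RNA came from Trizol and the TruSeq RNA Library Prep Kit v2, per the labels' protocols. Counting settings are not given in the sources used here. GENCODE M21 gave symbols and coordinates for 51719 IDs.

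Counts were fitted with edgeR 4.0.16 in R 4.3.3 (filterByExpr, TMM, quasi-likelihood test, Benjamini-Hochberg over 19017 genes, threshold 0.05), checked on simulated data. Log2 CPM used a prior count of 2. RPKM are CPM per kilobase of merged exons. The GC correction was a natural spline with 6 df per library. Alternatives used DESeq2 1.42.0, limma 3.58.1, other scalings and filters, the replicate number as a block, and libraries left out. The members, lists and tests were chosen with earlier results of these data known. Named beside the members were fixed isoforms and partners, the 3 most abundant tested genes of each list (the 3 most abundant of each marker list), and the 5 genes most like the members' sum. Some genes that this rule takes are not reported here.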

Additional observations from a re-analysis of the deposited data

How the results depend on the processing

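Low counts limit Myod1, Myf5, Myog and Ckm most. The log2 ratio of the members' summed level was -1.32, and lay between -1.71 and -1.14 when 1 library was left out. It was -0.89 with the GC correction and -1.09 over the 4 libraries nearest to each other. Under 16 alternatives the 7 tested members gave 111 log2 fold changes, of which 111 were below 0 and 108 differed from the reported value by less than the spread between libraries. The 3 others were Acta1 (-1.35) and Myh3 (-0.92) with the GC correction, and Acta1 with it and the replicate block (-1.37). The members were picked on this contrast and every setting reuses these libraries. The 111 values are therefore not separate observations, and nothing is read from their direction.

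Counts of genes past the threshold depended on the settings, since many adjusted p-values lay just above 0.05, and the cause of each shift was not tested. The counts below are for all genes, members and other muscle genes in turn, from 41, 0 and 0. A threshold of 0.1 gave 8317, 4 and 40. Library size alone gave 4510, 2 and 24, with 51.4% of all calls lower in place of 78% and a median of all genes of 0.13 in place of 0.02. The DESeq2 Wald test gave 6894, 4 and 36, limma-voom 27, 0 and 0, and a filter of 1 CPM in 3 libraries 5266, 4 and 23. The GC correction gave 77, 0 and 0. Without WT 3 there were 6460, 3 and 34, and without Mark3-KO 1 there were 6265, 5 and 34. Leaving out other single libraries gave 0 to 14 genes in all (0 without WT 2, with 5929 at an unadjusted p below 0.05), so that single omissions spanned 0 to 6460, 0 to 5 and 0 to 34. The 4 nearest libraries gave 0 (3258 at an unadjusted p below 0.05), 0 and 0. The log2 fold change of Mark3 was -1.35 to -1.22 with 1 library left out, and -1.24 over the 4 nearest libraries (edgeR adjusted p 0.125).

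Same-numbered libraries did not deviate together in every pair (r of 0.33, -0.03 and 0.29). The GC ratios fell from replicate 1 to 3 in both groups. With 3 libraries per group, these r cannot show whether the numbers pair the libraries, and the main fit used no block. WT 1 and WT 3 correlated best with the Mark3-KO library of their own number. WT 2 correlated with none, its highest r being 0.06 with Mark3-KO 1. With the replicate number as a block, 8487 genes, 3 members and 44 other muscle genes passed, and 1003, 1 and 3 with the block and the GC correction.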
